A study of Homo sapiens with 12 samples.

Results

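The genes described here encode 5 receptor tyrosine kinases and 5 of the growth factors that bind them: PDGFRA and PDGFRB with PDGFA and PDGFC, MET with HGF, AXL with GAS6, and FGFR1 with FGF2. They were taken by symbol, as the protein-coding interval of that name, with the shortest interval kept where a name has several. Each of the 10 genes had exactly 1 such interval, so 10 of 44868 gene intervals, of which 19438 are protein-coding, are covered. Expression was measured by RNA sequencing in A172, an established human glioblastoma line labelled as WT and as adherent glioma cells. Cells received siRNA-1 against uc.110, siRNA-2 against uc.110, or a scrambled control siRNA, with 4 libraries in each group. uc.110 is an ultraconserved region, a stretch of genome kept without change between distant mammals, and the study asked which genes change when it is knocked down. All 3 groups shared the line, the transfection (3 µL of 20 µM siRNA with 9 µL of Lipofectamine 2000 for 6 h) and collection of total RNA on day 2 after it, with no untransfected cells among them. A172 is a single line. Nothing in the labels ties the 4 libraries of a group to separate cultures, and p-values then measure only a spread that may be technical.

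Receptor tyrosine kinases span the cell membrane, pair up when their ligand binds, and phosphorylate each other, which recruits adaptor proteins and starts the RAS-ERK and PI3K-AKT cascades. The platelet-derived growth factor (PDGF) receptors drive growth of glial progenitors and pericytes, and PDGFRA is amplified in a part of glioblastomas. MET, the receptor for hepatocyte growth factor, and AXL, a receptor of the TYRO3-AXL-MERTK (TAM) group that reads the vitamin K-dependent protein GAS6, are linked to invasion and to resistance against other kinase inhibitors. FGFR1 is the main receptor of the fibroblast growth factor FGF2, which needs heparan sulfate chains on the cell surface to bind.

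Counts per library in the gene intervals lay between 43328440 and 53611659. The targeted region itself held 5 reads over the siRNA-1 libraries, 7 over the siRNA-2 libraries and 11 over the scrambled libraries, too few for the knockdown to be read from them. The share of counts in 45S ribosomal RNA intervals was 1.68% to 5.03% in 10 libraries, with higher shares of 14.8% for siRNA-1 replicate 3 and 8.48% for siRNA-2 replicate 2. Scrambled replicate 1 held 1679 intervals with reads in no other library, against 88 to 178 in the others. The summed level of 7 interferon-stimulated genes was 1489 to 1577 CPM (counts scaled to the size of the library) with siRNA-1, 2215 to 2368 CPM with siRNA-2 and 189 to 491 CPM with scrambled siRNA, and the part of this response in the changes below was not tested. Of the 9 glial and glioma markers, VIM, CD44, NES and SOX9 were abundant, GFAP (5.74 to 8.84 CPM) and OLIG2 (4.19 to 10.5 CPM) were low, FABP7 had 63 reads and S100B had 1 read in all 12 libraries. These markers summed to 2774 to 3116 CPM with siRNA-1, 3247 to 3405 CPM with siRNA-2 and 3681 to 4032 CPM with scrambled siRNA, a sum led by VIM, which averaged 1669 CPM with siRNA-1, 1928 CPM with siRNA-2 and 2609 CPM with scrambled siRNA. Of the 7 markers tested, 3 rose (OLIG2, GFAP, NES) and 2 fell (VIM, CD44) with siRNA-1, while 4 rose (OLIG2, GFAP, SOX9, CD44) and 2 fell (VIM, NES) with siRNA-2, so the markers had no common direction. Of the pericyte markers, RGS5 (135 to 279 CPM) and CSPG4 (271 to 390 CPM) were present while KCNJ8 and ABCC9 had 25 and 50 reads in all libraries together. In bulk RNA, fewer cells of a kind and less RNA per cell cannot be told apart.

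Of the 10 genes, 9 had enough reads to be tested. With siRNA-1, 8 of the 9 passed the threshold (edgeR adjusted p under 0.05), 4 higher (PDGFRB, GAS6, FGFR1, FGF2) and 4 lower (PDGFRA, PDGFA, MET, AXL) than with scrambled siRNA. Over all 25197 genes tested, 53.5% passed in this comparison (28.6% higher, 24.8% lower), and 73.6% of the 8861 protein-coding genes with an average log2 CPM of at least 4, an abundance limit chosen after the values were seen that all of the 9 but PDGFRA pass. With siRNA-2, 6 of the 9 passed, 3 higher (PDGFC, GAS6, FGF2) and 3 lower (PDGFRA, MET, AXL), against 56.1% of all genes (30.0% higher, 26.1% lower) and 75.8% of the abundant ones. The count with either siRNA is therefore close to what genes of this abundance showed in general. All libraries of the siRNA lay on 1 side of all scrambled libraries for 8 genes with siRNA-1 (47.5% of all genes and 67.7% of abundant ones) and for 4 genes with siRNA-2 (51.9% and 72.8%). None of the 9 changed 2-fold, as 2.76% of abundant genes did with siRNA-1 and 3.57% with siRNA-2. The median log2 fold change of the 9 was 0.11 with siRNA-1 and -0.0007 with siRNA-2, where the median over all genes was 0.01 for each. Without the 3 libraries that stood apart (siRNA-1 replicate 3, siRNA-2 replicate 2, scrambled replicate 1), 8 genes passed with siRNA-1 and 5 with siRNA-2, where FGF2 was lost. The 2 comparisons share the scrambled libraries and so are not independent.

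**Figure D1:**
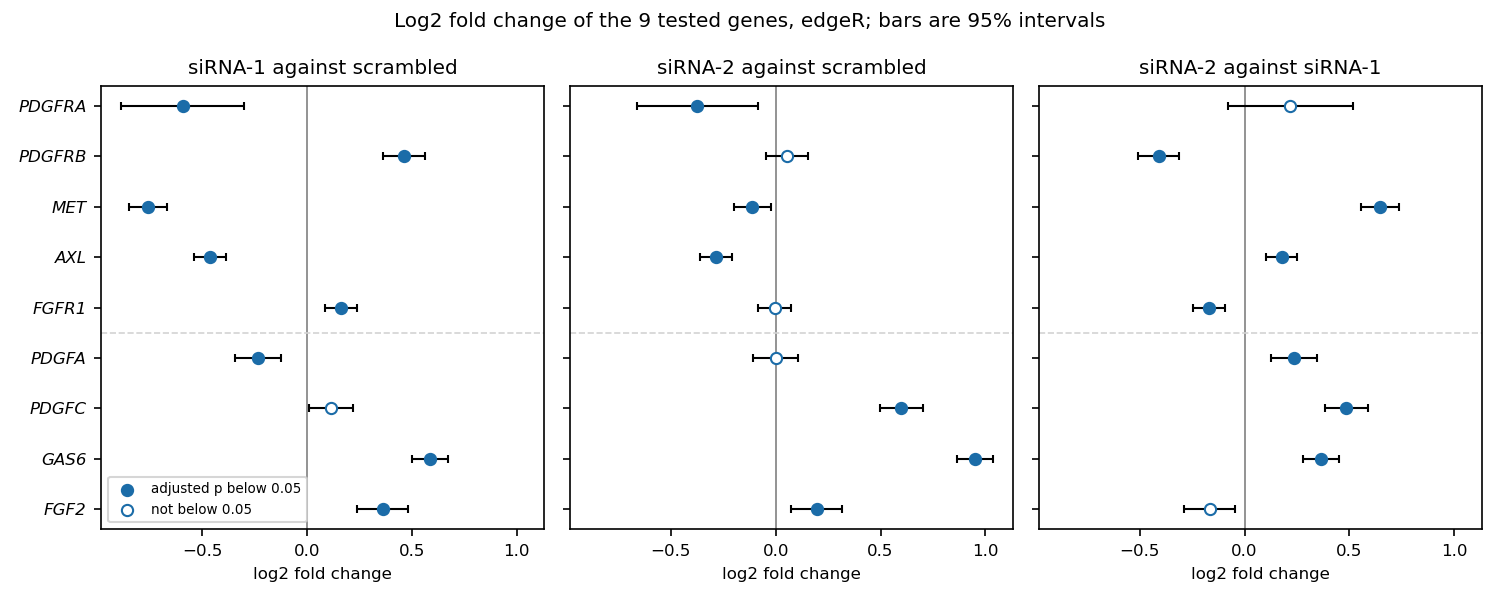
Log2 fold changes of the 9 tested genes in the comparisons siRNA-1 over scrambled, siRNA-2 over scrambled and siRNA-2 over siRNA-1, from left to right (edgeR, 4 libraries against 4). Points are the estimates, filled where the adjusted p is under 0.05, and bars are 95% intervals. GAS6 lies above 0 and AXL below 0 with both siRNAs, while MET falls by 0.76 with siRNA-1 and by 0.11 with siRNA-2.

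The bases before the start of PDGFRB, MET, AXL and GAS6, the 4 genes with the smallest p-values against scrambled siRNA for siRNA-1, are shown so that the common promoter words in them can be seen. They come from the RefSeq promoter table of GRCh38.p14. Of the 10 genes, FGFR1 was left out of the search, and 8 of the others were found. Each printed stretch is 250 bases long, read 5′ to 3′ on the strand of the gene and ending just before its first base. Capitals mark each match to a searched word. They lie at chr5:150155846-150156095 (minus strand), chr7:116671946-116672195 (plus strand), chr19:41218973-41219222 (plus strand) and chr13:113864077-113864326 (minus strand).
PDGFRB: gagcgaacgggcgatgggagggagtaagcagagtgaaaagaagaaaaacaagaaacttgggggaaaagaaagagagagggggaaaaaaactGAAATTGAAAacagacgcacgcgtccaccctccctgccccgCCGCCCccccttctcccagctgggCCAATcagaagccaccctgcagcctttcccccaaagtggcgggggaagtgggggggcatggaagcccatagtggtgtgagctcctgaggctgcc
MET: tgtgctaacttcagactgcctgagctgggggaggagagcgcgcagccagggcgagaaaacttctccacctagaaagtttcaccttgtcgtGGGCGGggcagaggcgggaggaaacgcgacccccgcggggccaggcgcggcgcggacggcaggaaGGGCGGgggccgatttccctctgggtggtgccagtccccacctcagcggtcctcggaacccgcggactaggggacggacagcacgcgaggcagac
AXL: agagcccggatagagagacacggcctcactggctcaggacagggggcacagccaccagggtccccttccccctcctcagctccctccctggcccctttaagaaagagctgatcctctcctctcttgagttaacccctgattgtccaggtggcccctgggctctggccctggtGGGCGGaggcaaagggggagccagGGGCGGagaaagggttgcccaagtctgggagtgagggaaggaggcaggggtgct
GAS6: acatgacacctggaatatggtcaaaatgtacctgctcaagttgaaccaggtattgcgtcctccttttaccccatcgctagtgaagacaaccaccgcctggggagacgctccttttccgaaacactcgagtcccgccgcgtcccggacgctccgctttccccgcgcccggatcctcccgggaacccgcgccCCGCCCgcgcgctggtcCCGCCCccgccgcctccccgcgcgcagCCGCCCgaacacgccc
The 6 words, searched on both strands in the 35116 windows of the same length in that table, were the GC box GGGCGG (found in 42.6% of windows), the AP-1 word TGANTCA (6.57%), CCAAT (32.0%), TATAAA (10.7%), the core of the interferon-stimulated response element, GAAA and GAAA set 2 bases apart (3.02%) and the STAT word TTCNNNGAA (6.57%). PDGFRB had 1 GC box, 1 CCAAT and 1 response element core, MET and AXL had 2 GC boxes each, and GAS6 had 3. The bases before another start of AXL (chr19:41226505-41226754, plus strand), not printed here, held 1 response element core and no GC box. A match says only that these letters are present, and the GC box is common in the promoters of genes that many tissues express.

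GAS6 and AXL, a ligand and its receptor, changed in opposite directions with both siRNAs. GAS6 (chr13:113820549-113864103, minus strand, hg38), which bridges AXL to exposed phosphatidylserine, had 101, 98.5, 89.8 and 105 CPM with siRNA-1, 132, 129, 122 and 124 CPM with siRNA-2, and 63.5, 69.2, 65.6 and 64.2 CPM with scrambled siRNA. All siRNA-2 libraries lay above all siRNA-1 libraries, and these above all scrambled ones. GAS6 rose 1.501-fold with siRNA-1 (log2 0.59, SE 0.04, edgeR adjusted p = 2.9e-11) and 1.93-fold with siRNA-2 (log2 0.95, SE 0.04, adjusted p = 2.74e-15). It also differed between the siRNAs, higher with siRNA-2 by 0.36 on the log2 scale (SE 0.04, adjusted p = 3.54e-07). The interval of GAS6 is covered on the other strand by that of GAS6-AS1, whose reads come to 98.9% of those of GAS6. GAS6-AS1 rose by nearly the same amounts, 0.57 with siRNA-1 (edgeR adjusted p = 5.08e-11) and 0.94 with siRNA-2 (adjusted p = 3.72e-15). Whether the counting used strand is not stated, but the 2 intervals appear to hold largely the same reads. The gene and its antisense partner therefore cannot be told apart.

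AXL (chr19:41209313-41262387, plus strand), the most abundant of the 10 per kb of exon, had 438, 426, 442 and 456 CPM with siRNA-1, 485, 496, 520 and 491 CPM with siRNA-2, and 581, 648, 609 and 593 CPM with scrambled siRNA. The 3 groups did not overlap, with the siRNA-1 libraries lowest and the scrambled libraries highest. AXL fell by 0.46 with siRNA-1 (log2, SE 0.04, edgeR adjusted p = 1.75e-10) and by 0.29 with siRNA-2 (SE 0.04, adjusted p = 5.38e-07). It was higher with siRNA-2 than with siRNA-1 by 0.18 (SE 0.04, adjusted p = 0.000787). The interval begins 9.91 kb before the RefSeq start of AXL and shares no bases with another interval used.

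**Figure D2:**
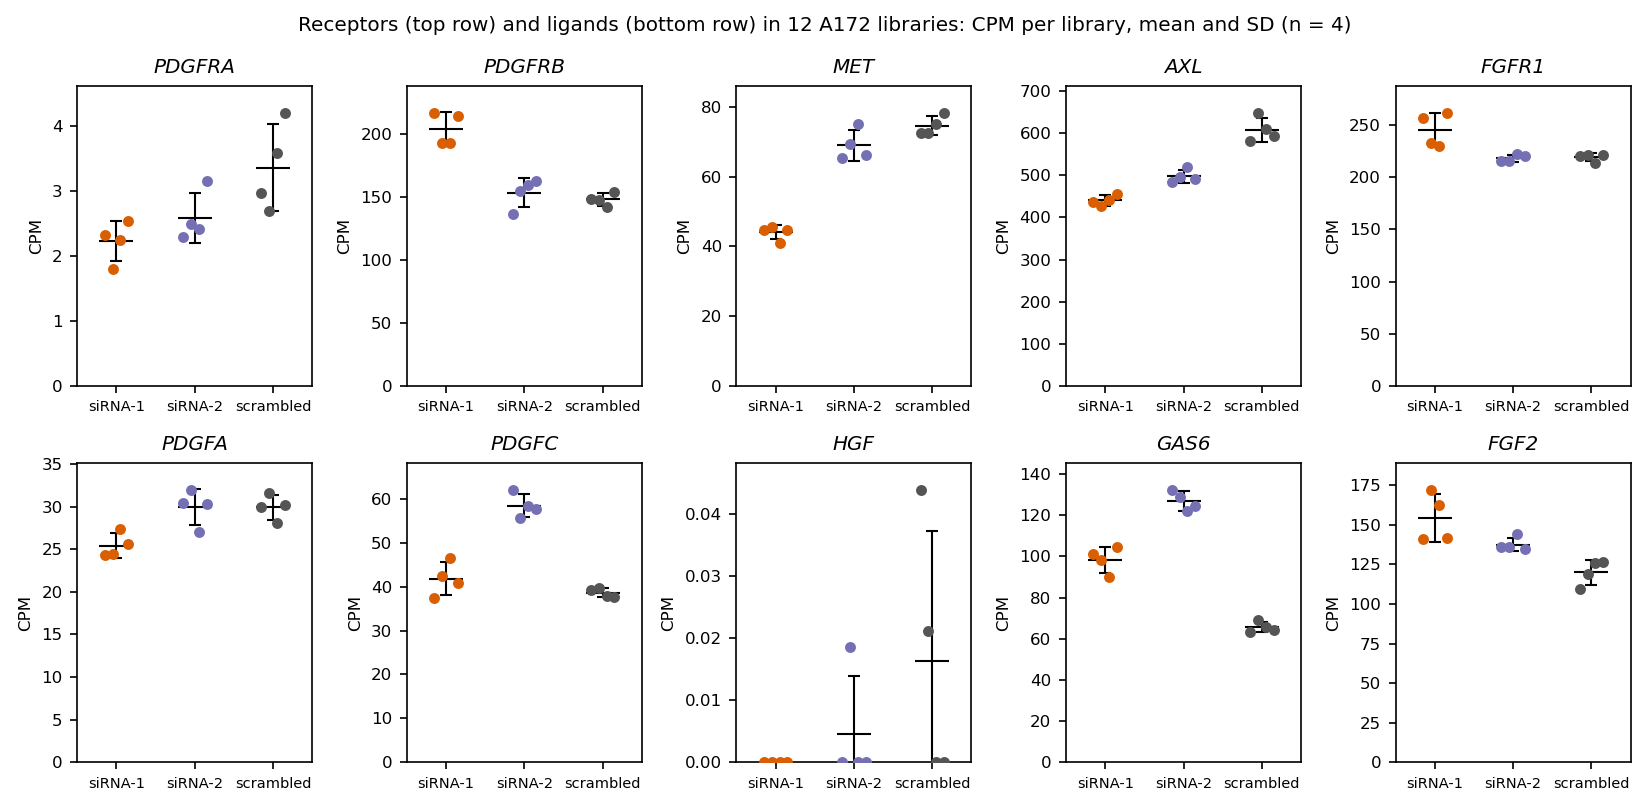
Level of each of the 10 genes in every library, in CPM with TMM-scaled library sizes, on a linear axis from 0, with siRNA-1, siRNA-2 and scrambled siRNA from left to right. Points are libraries and bars are group means with SD (n = 4). The 3 groups separate without overlap for GAS6 and AXL, while MET and PDGFRB set the siRNA-1 libraries apart and PDGFC the siRNA-2 libraries.

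MET fell chiefly with siRNA-1. MET (chr7:116672196-116798669, plus strand), whose product is the receptor for hepatocyte growth factor, had 44.7, 45.6, 41.1 and 44.8 CPM with siRNA-1, 65.2, 69.3, 75.1 and 66.1 CPM with siRNA-2, and 72.5, 72.4, 75.0 and 78.1 CPM with scrambled siRNA. The siRNA-1 libraries lay below all others, while the siRNA-2 and scrambled libraries overlapped. MET was 1.69-fold lower with siRNA-1 (log2 -0.76, SE 0.05, edgeR adjusted p = 6.76e-13), the change furthest from 0 among the 9 genes in this comparison. With siRNA-2 it fell by 0.11 (SE 0.05, adjusted p = 0.0406), a call that did not pass without siRNA-2 replicate 1 (-0.09, adjusted p = 0.143), siRNA-2 replicate 4 (-0.09, adjusted p = 0.137), scrambled replicate 3 (-0.11, adjusted p = 0.0775) or scrambled replicate 4 (-0.09, adjusted p = 0.138). Over its 20 alternatives the adjusted p lay between 0.00561 and 0.143. The difference between the siRNAs was itself past the threshold, with MET 1.57-fold higher with siRNA-2 than with siRNA-1 (log2 0.65, SE 0.05, adjusted p = 8.22e-11). COMETT, a long noncoding RNA that overlaps MET on the opposite strand, held reads equal to 8.18% of those of MET. Its log2 fold changes were much like those of MET, at -0.62 with siRNA-1 (edgeR adjusted p = 2.13e-05) and -0.05 with siRNA-2 (adjusted p = 0.695). Between the siRNAs COMETT was higher with siRNA-2 by 0.57 (adjusted p = 0.000156). The intervals of COMETT and MET share 15832 bases, and whether the counting used strand is not stated. Reads in those bases cannot be told apart, and their part in this likeness was not tested.

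HGF (chr7:81698961-81770438, minus strand), the ligand of MET, which mesenchymal cells usually supply to their neighbours, was close to undetected. It had 0 reads in all siRNA-1 libraries, 1 read in siRNA-2 replicate 2 alone, and 2, 1, 0 and 0 reads in the scrambled libraries. The 0 reads with siRNA-1 allow a level of up to 0.0162 CPM (3 counts over the group, counting error only). HGF was left out of the model. A two-sided exact permutation test over libraries gave p = 0.429 with siRNA-1 and p = 0.429 with siRNA-2. With reads in so few libraries, neither test could reach 0.0286, the smallest p that 4 against 4 can give. For siRNA-1, these reads allowed no p under 0.429, so the test cannot decide whether HGF differed. A difference was not detectable at this depth.

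The PDGF receptors changed in opposite directions with siRNA-1. PDGFRB (chr5:150113839-150155884, minus strand), the receptor for PDGF-B and PDGF-D and a gene of pericytes and fibroblast-like cells, had 217, 193, 193 and 215 CPM with siRNA-1, 137, 155, 160.05 and 163 CPM with siRNA-2, and 149, 147, 142 and 154 CPM with scrambled siRNA. The siRNA-1 libraries lay above all others, while the siRNA-2 libraries spread around the scrambled ones. PDGFRB rose 1.38-fold with siRNA-1 (log2 0.46, SE 0.05, edgeR adjusted p = 1.34e-07). With siRNA-2 the log2 estimate was 0.05 (with an SE of 0.05, adjusted p = 0.393), with an interval of -0.05 to 0.15. Without siRNA-2 replicate 1, the lowest library, it was 0.11 (adjusted p = 0.0507), and over its 20 alternatives the adjusted p lay between 0.0507 and 0.778. PDGFRB was lower with siRNA-2 than with siRNA-1 by 0.41 on the log2 scale, a value of -0.41 (SE 0.05, adjusted p = 2.47e-06). The summed level of the 4 pericyte markers was 534 to 572 CPM with siRNA-1, 503 to 533 CPM with siRNA-2 and 492 to 555 CPM with scrambled siRNA, but its abundant members differed in direction. RGS5 averaged 259 CPM with siRNA-1, 141 CPM with siRNA-2 and 215 CPM with scrambled siRNA, so that, like PDGFRB, it rose with siRNA-1 (log2 0.27, adjusted p = 0.000378), and it fell by 0.60 with siRNA-2 (adjusted p = 2.46e-08). CSPG4 averaged 291 CPM with siRNA-1, 372 CPM with siRNA-2 and 314 CPM with scrambled siRNA, at -0.11 with siRNA-1 (adjusted p = 0.0497) and 0.24 with siRNA-2 (adjusted p = 0.000106). The part of these markers in the change of PDGFRB was not tested.

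PDGFRA (chr4:54227757-54298927, plus strand), the receptor for PDGF-A and PDGF-C and a gene of oligodendrocyte progenitors, was low in these cells. It had 2.33, 1.81, 2.24 and 2.54 CPM with siRNA-1, 2.30, 2.49, 2.42 and 3.16 CPM with siRNA-2, and 2.97, 2.70, 3.58 and 4.197 CPM with scrambled siRNA, from 87 to 200 reads per library. The siRNA-1 libraries lay below all scrambled ones, and the siRNA-2 libraries overlapped with them. PDGFRA fell by 0.59 with siRNA-1 (log2, SE 0.15, edgeR adjusted p = 0.0016) and by 0.37 with siRNA-2 (SE 0.15, adjusted p = 0.0328). The siRNA-2 call did not pass without siRNA-2 replicate 1 (-0.32, adjusted p = 0.0905), siRNA-2 replicate 2 (-0.36, adjusted p = 0.063), siRNA-2 replicate 3 (-0.34, adjusted p = 0.0792), scrambled replicate 3 (-0.34, adjusted p = 0.0795) or scrambled replicate 4 (-0.25, adjusted p = 0.172). Over its 20 alternatives the adjusted p lay between 0.0113 and 0.172. The siRNAs differed by 0.22 (SE 0.15, adjusted p = 0.298) with an interval of -0.08 to 0.52, which does not show that they act alike.

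The PDGF ligands split between the siRNAs. PDGFC (chr4:156754333-156971799, minus strand), which is secreted in a latent form and cut by proteases before it binds, had 37.4, 42.4, 46.4 and 40.8 CPM with siRNA-1, 62.0, 55.7, 58.4 and 57.6 CPM with siRNA-2, and 39.2, 39.6, 37.8 and 37.6 CPM with scrambled siRNA. The siRNA-2 libraries lay above all others, while siRNA-1 and scrambled libraries overlapped. PDGFC rose 1.51-fold with siRNA-2 (log2 0.60, SE 0.05, edgeR adjusted p = 3.53e-10). With siRNA-1 the log2 estimate was 0.11 (with an SE of 0.05, adjusted p = 0.0722), and it passed without siRNA-1 replicate 1 (0.17, adjusted p = 0.00842), where over its 20 alternatives the adjusted p lay between 0.00842 and 0.606. PDGFC was 1.40-fold higher with siRNA-2 than with siRNA-1 (log2 0.48, SE 0.05, adjusted p = 7.5e-08).

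PDGFA (chr7:484108-520677, minus strand), which signals through PDGFRA, had 24.3, 24.4, 27.4 and 25.6 CPM with siRNA-1, 30.4, 31.97, 27.0 and 30.3 CPM with siRNA-2, and 29.9, 31.6, 28.0 and 30.2 CPM with scrambled siRNA. The siRNA-1 libraries lay just below all scrambled ones, and siRNA-2 replicate 3 lay below its group. PDGFA fell by 0.24 with siRNA-1 (log2, SE 0.06, edgeR adjusted p = 0.000872). With siRNA-2 the log2 estimate was -0.0007 (with an SE of 0.06, adjusted p = 0.993), with an interval of -0.11 to 0.11. It was higher with siRNA-2 than with siRNA-1 by 0.23 (SE 0.06, adjusted p = 0.0018). The interval runs 13.15 kb past the end of the gene in RefSeq and overlaps HRAT92, a noncoding RNA on the other strand whose reads come to 13.2% of those of PDGFA.

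FGFR1 and its ligand FGF2 were both higher with siRNA-1. FGFR1 (chr8:38411139-38468834, minus strand) had 257, 233, 229.9 and 261 CPM with siRNA-1, 215, 215, 222 and 219.9 CPM with siRNA-2, and 219.9, 222, 213 and 221 CPM with scrambled siRNA. The siRNA-1 libraries lay above all others, and the other groups overlapped. FGFR1 rose 1.12-fold with siRNA-1 (log2 0.16, SE 0.04, edgeR adjusted p = 0.00113). With siRNA-2 the log2 estimate was -0.01 (with an SE of 0.04, adjusted p = 0.911), with an interval of -0.08 to 0.07. FGFR1 was lower with siRNA-2 than with siRNA-1, at -0.17 (SE 0.04, adjusted p = 0.00164). LOC107986937, a noncoding RNA that overlaps it on the other strand, held reads equal to 16.5% of those of FGFR1 and rose by 0.26 with siRNA-1 (adjusted p = 0.00135).

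FGF2 (chr4:122826683-122898524, plus strand), a ligand without a signal peptide that leaves cells by an unconventional route, had 141, 172.2, 162 and 142 CPM with siRNA-1, 136, 136, 144 and 135 CPM with siRNA-2, and 109.5, 119, 126 and 126 CPM with scrambled siRNA. Both siRNA groups lay above all scrambled libraries, and overlapped each other. FGF2 rose by 0.36 with siRNA-1 (log2, SE 0.06, edgeR adjusted p = 0.000135) and by 0.20 with siRNA-2 (SE 0.06, adjusted p = 0.0139). The siRNA-2 call did not pass without scrambled replicate 1 (0.14, adjusted p = 0.0729), the library with the lowest FGF2 and the highest interferon sum of its group, nor without the 3 libraries that stood apart (0.13, adjusted p = 0.111). Over its 20 alternatives the adjusted p lay between 0.002 and 0.111. The siRNA-2 minus siRNA-1 difference was -0.17 (SE 0.06, adjusted p = 0.0525), with an interval of -0.29 to -0.04. It passed without siRNA-1 replicate 1 (-0.21, adjusted p = 0.0139), siRNA-1 replicate 4 (-0.21, adjusted p = 0.019) or scrambled replicate 1 (-0.16, adjusted p = 0.0422), and over its 20 alternatives the adjusted p lay between 0.0139 and 0.188. NUDT6, an antisense gene that overlaps the end of FGF2, held reads equal to 75.8% of those of FGF2. Its log2 fold changes were 0.25 with siRNA-1 (adjusted p = 0.0124) and 0.05 with siRNA-2 (adjusted p = 0.613). The intervals of NUDT6 and FGF2 share 5949 bases, where reads of the pair cannot be told apart. How much of the FGF2 count lies there was not measured. A noncoding RNA on the other strand that also overlaps FGF2 held reads equal to 7.76% of those of FGF2, and rose by 0.66 with siRNA-1 (adjusted p = 7.74e-08) and by 0.65 with siRNA-2 (adjusted p = 8.62e-08).

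Between the siRNAs, which name the same target, 7 of the 9 tested genes passed, 5 higher with siRNA-2 (PDGFA, PDGFC, MET, AXL, GAS6) and 2 lower (PDGFRB, FGFR1), against 32.7% of all genes (15.8% higher, 16.9% lower) and 51.3% of the abundant ones. The siRNA-2 libraries lay wholly on 1 side of the siRNA-1 libraries for 6 genes, against 32.0% of all genes and 49.2% of the abundant ones. The largest of these differences, 0.65 for MET and 0.48 for PDGFC on the log2 scale, stand beside a median absolute difference of 0.12 and a 90th percentile of 0.35 over the abundant genes. The median of the 9 genes was 0.22, beside -0.0012 over all genes, and 7 passed also without the 3 libraries that stood apart.

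To set the genes side by side, levels were divided by the length of their exons, in CPM per kb of exon, although the counts cover introns too. AXL led in every group with 90.01 ± 2.51 with siRNA-1, 102 ± 3.09 with siRNA-2 and 124 ± 5.95 with scrambled siRNA (SD, n = 4 each). With scrambled siRNA FGFR1 (30.8 ± 0.533), GAS6 (26.4 ± 1.01), PDGFRB (25.8 ± 0.844) and FGF2 (17.7 ± 1.17) followed, where GAS6 and PDGFRB differed by less than their spread. MET (10.9 ± 0.396) and PDGFA (10.7 ± 0.520) then differed by less than their spread too, ahead of PDGFC (9.26 ± 0.246). PDGFRA (0.399 ± 0.0793) and HGF (0.00168 ± 0.00217) came last in all groups. With siRNA-1 MET stood at 6.42 ± 0.293, below PDGFA at 9.08 ± 0.511 and PDGFC at 10.02 ± 0.899, while PDGFRB at 35.5 ± 2.28 and FGFR1 at 34.5 ± 2.26 differed by less than their spread. With siRNA-2 GAS6 stood second at 50.9 ± 1.88, and PDGFC at 14.02 ± 0.636 stood ahead of PDGFA at 10.7 ± 0.747 and MET at 10.1 ± 0.652.

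**Figure D3:**
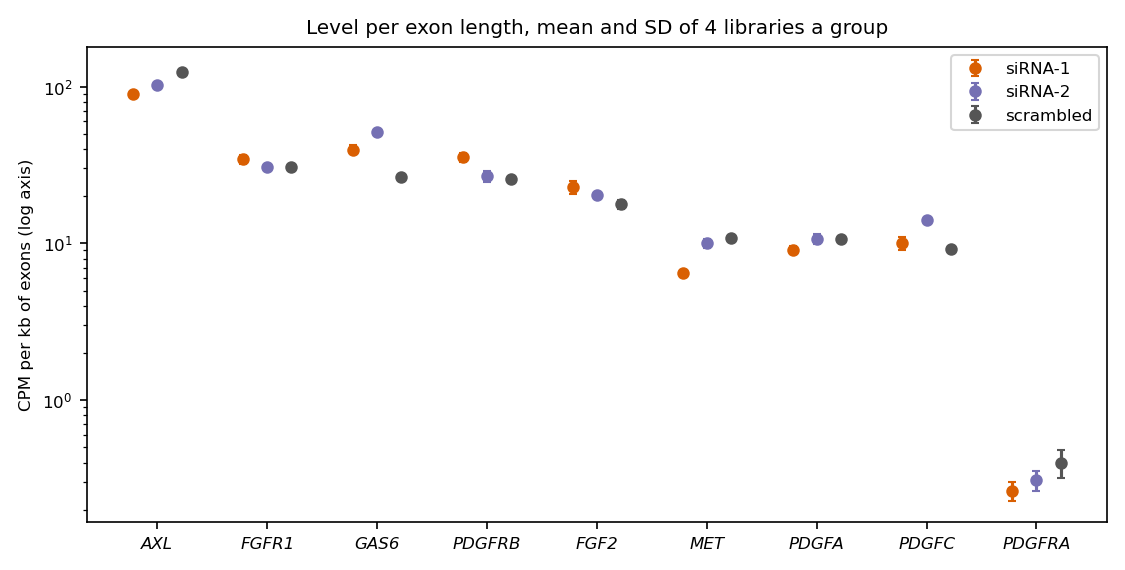
Mean level of each gene in CPM per kb of exon with siRNA-1, siRNA-2 and scrambled siRNA, on a log axis, with SD as bars (n = 4 libraries each). AXL is highest in each group, at 90.01 with siRNA-1, 102 with siRNA-2 and 124 with scrambled siRNA. PDGFRA stands far below the other receptors at 0.264, 0.307 and 0.399 in the same order, and HGF, near 0, is not drawn.

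The other genes of these pathways were read from lists chosen with earlier results known, and their counts stand beside the 28.6% of all genes that rose and 24.8% that fell with siRNA-1, while 30.0% rose and 26.1% fell for siRNA-2. Of the abundant protein-coding genes, 73.6% passed in either direction with siRNA-1 and 75.8% with siRNA-2. A list count near these shares is therefore not particular to the list. Where the interval of a named gene is said to overlap or share reads with another, the changes of the pair were not separated. Of 3 other PDGF family genes, 2 rose with siRNA-1 and the other did not pass, and 1 rose and 1 fell with siRNA-2, with log2 medians of 0.48 for siRNA-1 and 0.02 for siRNA-2, where the median over all genes was 0.01 for each. PDGFRL, a secreted protein that resembles the outer part of a PDGF receptor, rose by 1.67 with siRNA-1 (SE 0.08) and 2.26 with siRNA-2 (SE 0.07), and its interval shares reads with LOC107986919. PDGFB, the main ligand of PDGFRB, rose by 0.48 (SE 0.05) with siRNA-1, and PDGFD, another ligand of PDGFRB, fell by 0.48 (SE 0.07) with siRNA-2.

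Among 14 other FGF receptors and co-receptors, 12 could be tested, and 6 rose and 4 fell with siRNA-1 (median 0.20) while 7 rose and 4 fell with siRNA-2 (median 0.28). FGFR3, a receptor kinase that is fused to TACC3 in some gliomas, rose by 1.41 (SE 0.05) with siRNA-1 and 1.07 (SE 0.05) with siRNA-2. FGFRL1, which binds FGFs but lacks a kinase domain, rose by 0.97 with siRNA-1 and by 0.90 with siRNA-2 (SE 0.04 each), in an interval that overlaps IDUA. SDC4, a heparan sulfate proteoglycan that helps FGF2 to bind, fell by 0.70 with siRNA-1 and by 0.59 with siRNA-2 (SE 0.04 each). Of 12 other FGF ligands, counting the carrier FGFBP1, 7 could be tested, and 1 rose and 1 fell with siRNA-1 (median -0.0045) while 4 rose and 1 fell with siRNA-2 (median 0.43). FGF5, a ligand that ends hair growth in mammals, rose by 1.54 (SE 0.12) with siRNA-2. With siRNA-1 it had 0.34 (SE 0.12, adjusted p = 0.0285), and did not pass when scrambled replicate 1, 2 or 3, siRNA-1 replicate 2 or 3, or the 3 libraries that stood apart were left out, with adjusted p of 0.00249 to 0.142 over its 20 alternatives. FGF1, which binds all FGF receptors, rose by 0.83 (SE 0.09) with siRNA-2.

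Of 8 genes of the MET family and of HGF activation, 7 could be tested, and 3 rose and 1 fell with each siRNA, with medians of 0.38 for siRNA-1 and 0.40 for siRNA-2. SPINT1, an inhibitor of the proteases that activate HGF, rose by 1.102 (SE 0.31) with siRNA-1, and MST1R, the closest relative of MET, fell by 0.69 (SE 0.12) in an interval that overlaps LOC102724438. With a filter of 1 CPM in 4 libraries only 4 of these genes were tested, and the medians were -0.15 for siRNA-1 and -0.12 for siRNA-2. The siRNA-2 counts lay between 1 and 3 genes higher and between 0 and 2 lower over all settings. PLXNB1, a receptor for SEMA4D and the gene that fell with siRNA-2 (-0.14, adjusted p = 0.0269), did not pass without scrambled replicate 2 (adjusted p = 0.07) or siRNA-2 replicate 3 (adjusted p = 0.0792), with adjusted p of 0.00273 to 0.0792 over its alternatives. ST14, a protease that activates HGF and rose with siRNA-2 (0.78, adjusted p = 0.0293), did not pass with DESeq2 (adjusted p = 0.0624) or without scrambled replicate 2 (0.0633), scrambled replicate 3 (0.0781) or siRNA-2 replicate 3 (0.0799), with adjusted p of 0.0183 to 0.0799 over its alternatives. Of 5 other TAM genes and ligands, 4 could be tested, and 2 rose with siRNA-1 and the others did not pass, while 2 rose and 2 fell with siRNA-2, with medians of 0.10 for siRNA-1 and -0.07 for siRNA-2. The smaller of these rises with siRNA-2, of LGALS3 (0.13, adjusted p = 0.0365), passed in 8 of its 20 alternatives. MERTK, which clears dying cells in macrophages, rose by 1.60 (SE 0.13) with siRNA-1 and by 2.16 (SE 0.12) with siRNA-2, opposite in direction to AXL. TYRO3, the third TAM receptor, fell by 0.27 (SE 0.05) and PROS1, the other main TAM ligand, fell by 0.57 (SE 0.06) with siRNA-2. The hematopoietic markers CD68, CD14 and LCP1 summed to 66.2 to 85.4 CPM with siRNA-1, 152 to 184 CPM with siRNA-2 and 48.0 to 57.3 CPM with scrambled siRNA. Only CD68 among them rose, averaging 73.0 CPM with siRNA-1, 157 CPM with siRNA-2 and 38.1 CPM with scrambled siRNA. LCP1, an actin-bundling protein of blood cells, fell with both siRNAs, averaging 3.08 CPM with siRNA-1, 3.95 CPM with siRNA-2 and 12.4 CPM with scrambled siRNA. CD14 fell with siRNA-1 and did not pass with siRNA-2, averaging 1.31 CPM with siRNA-1, 1.84 CPM with siRNA-2 and 2.06 CPM with scrambled siRNA. The part of these markers in the change of MERTK was not tested.

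Downstream of the receptors, 19 of 20 adaptor and proximal signalling genes had an interval, and 10 rose and 5 fell with siRNA-1 (median 0.11) while 7 rose and 5 fell with siRNA-2 (median 0.06). Without the 3 libraries that stood apart, 6 rose and 5 fell with siRNA-1. SRC, a kinase that many receptors recruit, rose by 0.66 with siRNA-1 and by 0.85 with siRNA-2 (SE 0.05 each), and SHC1, an adaptor, rose by 0.39 (SE 0.04) with siRNA-1. PIK3CB, a catalytic subunit of PI3K, fell by 0.55 with siRNA-1 and by 0.80 with siRNA-2 (SE 0.04 each). PTPN11, a phosphatase that relays signals to RAS, fell by 0.73 with siRNA-1 and by 0.83 with siRNA-2 (SE 0.04 each), in an interval that overlaps RPL6. Of 11 genes of receptor downregulation with an interval, 3 rose and 7 fell with siRNA-1 (median -0.18) and 2 rose and 7 fell with siRNA-2 (median -0.16). SH3KBP1, which brings the ubiquitin ligase CBL to endocytic sites, fell by 1.42 with siRNA-1 and by 0.59 with siRNA-2 (SE 0.04 each). PTPRJ, a phosphatase that acts on MET and PDGFRB, fell by 0.55 with siRNA-1 and by 0.77 with siRNA-2 (SE 0.04 each). CBL itself rose by 0.22 with siRNA-1 and by 0.37 with siRNA-2 (SE 0.04 each), in an interval that overlaps MCAM.

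Of 16 ERK output genes with an interval, 9 rose and 4 fell with siRNA-1 (median 0.29) and 10 rose and 4 fell with siRNA-2 (median 0.25). DUSP6, a phosphatase that switches ERK off, rose by 1.27 with siRNA-1 and by 1.29 with siRNA-2 (SE 0.06 each), in an interval that shares reads with another one. SPRY4, a feedback inhibitor of receptor signalling, rose by 0.69 (SE 0.05) with siRNA-1. CCND1, the gene of cyclin D1, fell by 0.67 with siRNA-1 and by 0.45 with siRNA-2 (SE 0.04 each), and ETV1, a transcription factor, fell by 0.42 with siRNA-1 and by 0.46 with siRNA-2 (SE 0.04 each). The members of this list that changed therefore did so in both directions.

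**Figure D4:**
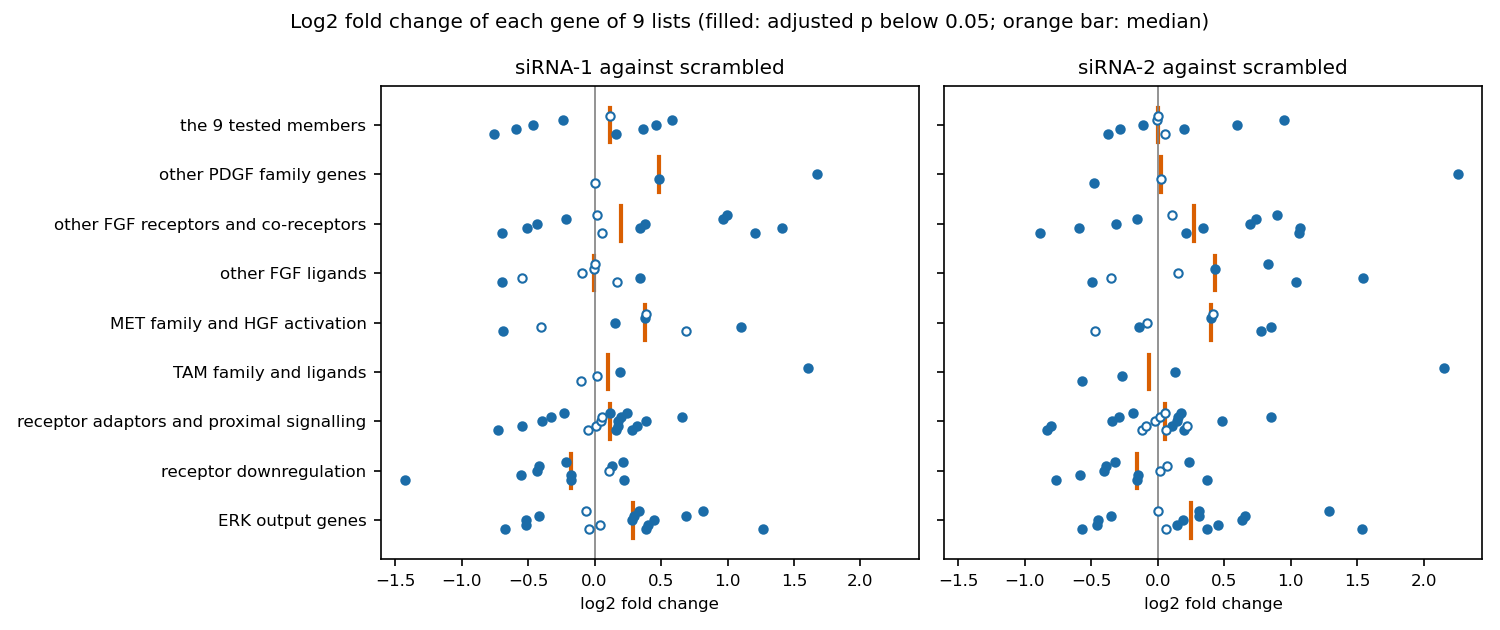
Log2 fold changes over scrambled siRNA for the 9 tested genes (one row) and the genes of each pathway list, siRNA-1 on the left and siRNA-2 on the right. Points are tested genes, filled where the adjusted p is under 0.05, and the orange line is the median of the list. The receptor downregulation list has medians of -0.18 with siRNA-1 and -0.16 with siRNA-2, and the ERK output list has medians of 0.29 with siRNA-1 and 0.25 with siRNA-2.

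Genes with a pattern most like each receptor were found by the root mean square difference of log2 CPM over the 12 libraries, each gene centred on its own mean, among 12542 protein-coding genes. Nearest to AXL were PPP3CA (0.0299), MAP4 (0.0367) and HGSNAT (0.0402), against a spread of AXL itself of 0.196. ITGA6 (0.0690), TMEM9B (0.0746) and PXDN (0.0762) were nearest to MET, whose own spread was 0.340, and SELENOP (0.0515), SIDT2 (0.0535) and TSTD2 (0.0544) to PDGFRB (spread 0.220). For FGFR1 (spread 0.0920) they were SAMD11 (0.0316), ATAD3A (0.0368) and PBXIP1 (0.0368). The nearest to PDGFRA, ARRDC3 (0.150), METTL9 (0.157) and MOXD1 (0.161), were further away relative to its spread of 0.310, and PDGFRA had only 87 to 200 reads per library. These distances describe likeness over the same 12 libraries.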

How the data were processed

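The deposited table holds raw whole-number read counts per genomic interval, which the authors did not normalize, per the file headers. Salmon and the hg38 build are named, with no version or role, per the submitters' processing notes, and the sources used here give neither the counting tool nor its strand setting. Intervals cover whole gene spans, introns included, so overlapping intervals share reads. File starts count from 0 and were printed from 1. Of 49731 intervals, 962 regions and 3901 gene intervals were left out: 1956 reaching over 100 kb beyond the gene of their name, 1200 with the counts of an overlapping interval, 595 under an older name, 69 unmatched and over 1 Mb long, 31 of ribosomal RNA, 28 with a number for a name and 22 chromosome Y copies. Of the 44868 used, 11085 had no reference match. FGF11, CRK, LRIG1 and IER3, and the markers PTPRC, AIF1 and MOG, had no interval used. No library column was identical to another.

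Genes were tested with edgeR 4.0.16 in R 4.3.3 (TMM, filterByExpr with a minimum count of 10 and minimum total of 15, robust glmQLFit on 12 libraries by group, glmQLFTest, two-sided), adjusted by Benjamini-Hochberg over 25197 genes. "Rose" and "fell" mean an adjusted p under 0.05, and "log2" alone means a fitted log2 fold change. SE is the absolute log2 fold change over the square root of F, and intervals are 95% from it. The test was tried on simulated data first. Named list genes are those with the 2 smallest p-values per list, direction and comparison with scrambled siRNA, of which the text gives a part. The genes and lists were chosen with earlier results of these data known. Alternatives were DESeq2 1.42.0 and its size factors, other filters, protein-coding intervals only, fits of just the groups compared, a replicate block, omission of each library in turn, and, chosen after seeing the data, leaving out 3 libraries. Exon lengths are from GENCODE v29. Python 3.11.15 was used for tables and figures.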

Additional observations from a re-analysis of the deposited data

Results flagged for a closer look

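Groups of 4 libraries were checked for a library far from the other 3, by the gap to the nearest other library over the range of the group (Dixon's 95% critical value for 4 samples). Of 29 groups, 2 were past it, where chance flags about 1 in 20 if values are normally spread. FGF2 in siRNA-2 replicate 3 was 143.9 CPM (7438 reads), against 134.8 to 135.9 CPM in the other siRNA-2 libraries, a gap of 0.877 of the range. HGF in siRNA-2 replicate 2 was 0.0186 CPM, which is 1 read against 0 in the other siRNA-2 libraries. A group with reads in a single library is always past the limit, so the HGF flag carries no information.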

How the results depend on the processing

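The count of genes past the threshold stayed within 1.5 times under all 20 alternatives, at 9774 to 13517 for siRNA-1 against scrambled, 10183 to 14210 for siRNA-2 against scrambled and 6576 to 8394 for siRNA-2 against siRNA-1. Leaving out 1 library gave 12641 to 13517, 13321 to 14210 and 7062 to 8394. Of the alternative values of single genes, 514 kept direction and side of the threshold, 13 no longer passed, 7 newly passed and 6 changed sign. The 8 calls with siRNA-1, those of GAS6, AXL and PDGFC with siRNA-2, and the 7 between the siRNAs passed under all 20 alternatives. The sign changes were of 2 genes that did not pass, with siRNA-2 against scrambled: PDGFA at -0.044 to 0.046 and FGFR1 at -0.025 to 0.0016 when 1 library was left out. FGF2 with siRNA-2 did not pass without a filter (0.17, adjusted p = 0.0654). FGF2 between the siRNAs passed with DESeq2 (-0.17, adjusted p = 0.0298) and with protein-coding intervals only (-0.16, adjusted p = 0.0474). The cause was not tested. Libraries of the same replicate number did not deviate together (r of -0.12 to 0.10 over 12 pairs, against -0.29 to 0.19 for other pairs, and 0 libraries nearest to their own number), so the numbers were not taken as pairs. With a replicate block MET with siRNA-2 did not pass (-0.11, adjusted p = 0.0532) and FGF2 between the siRNAs did (-0.16, adjusted p = 0.016). The longest interval of a name could not be tried, as each gene had 1. PDGFRA and HGF are limited by depth, and GAS6 and FGF2 most by shared reads. Intervals on the other strand also overlap FGFR1, PDGFA, MET, PDGFC and PDGFRB. Their reads equal 16.5%, 13.2%, 8.18%, 4.32% and 3.41% of those of these genes, in that order. The part of shared reads in the changes of these genes was not tested.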
